A study of Homo sapiens with 8 samples.

Results

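The mitosis genes described here are 34 human genes whose products carry out or control cell division, from the cyclins that start it to the proteins that separate the daughter cells. They were taken by symbol: deposited rows named by transcript were given the gene's symbol, each gene was represented by its row with the largest summed total, and all 34 genes had reads, of 15329 genes with a read in the series. The study followed RNA decay by SLAM-seq in the human cell line THP-1, which comes from an acute monocytic leukaemia. In SLAM-seq, 4-thiouridine (4sU) supplied to living cells enters new RNA, and after alkylation of the RNA the labelled uridines are read as T-to-C changes. Cells of 7 libraries received 30 uM 4sU for 12 h, with the medium exchanged every 3 h, were washed, and were then kept in 3 mM uridine for 0 h, 20 min, 40 min, 1 h, 2 h, 8 h or 12 h, and the cells of the remaining library never received 4sU. Each of these 8 conditions is represented by 1 library, so no difference between conditions had a replicate check. Tests over the chase measure how far the 7 libraries scatter about a line in time.

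Cells commit to mitosis when cyclin-dependent kinase 1 is activated by its cyclins, and they leave it when the anaphase-promoting complex (APC/C), a ubiquitin ligase, marks cyclins and securin for destruction. Most of the mRNAs involved are made late in the cycle, in G2 and M phase, and are scarce in G1. Their promoters are known for a CHR element, read by the DREAM and B-MYB complexes that share the MuvB core, and for CCAAT boxes, read by NF-Y.

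Chase libraries held between 8267490 gene reads (12 h) and 11177896 (8 h), and the library without 4sU held 2906703. Over the 8 libraries a mitosis gene collected from 1351 to 53341 reads. The mitosis genes took between 0.464% and 0.480% of the gene reads in the 5 libraries of 0 to 2 h, 0.672% after 8 h and 0.522% after 12 h, against 0.575% without 4sU. All 15 monocytic markers of THP-1 were detected with at least 80 reads, at 2841 to 3524 CPM in sum over the chase libraries and 3610 CPM without 4sU. CPM are gene counts divided by the gene reads of their library and scaled to 1e+06 reads. Single markers differed more than their sum: the median ratio to cells without 4sU was 2.43 at 0 h and 1.82 at 12 h. Over all genes these medians were 1.01 and 1.13. The 17 markers of lymphoid, epithelial and other cell types summed to 7.47 to 17.1 CPM in the chase libraries and 8.26 CPM without 4sU. Of these 17 markers, 4 had 80 reads or more in all, while CD79A, CDH1, KRT19, CD3E, KRT5 and PECAM1 had under 3 reads in every library. Total level was tested in 3 of the 17. The median ratio of this list to cells without 4sU was 5.11 at 0 h and 6.59 at 12 h. In such bulk samples fewer dividing cells and less mitotic RNA per cell cannot be told apart.

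Promoter sequence was read for the mitosis genes because the CHR element and the CCAAT box are shared features that their selection did not use. RefSeq promoters (GRCh38.p14, from 250 bases before to 50 bases after the start site) were at hand for 28 of the 34 genes, with no entry for BUB3, AURKA, BIRC5, UBE2C, TPX2 and TTK. The CHR letters TTTGAA, searched on both strands, lay in 19 of these 28 genes (67.9%), against 15.2% of all 35116 promoters and 13.8% of the 7577 genes tested for decay that have an entry. The letters CCAAT, also on both strands, lay in 25 of the 28 (89.3%), against 34.6% of all promoters and 44.0% of the genes tested. Both motifs lay in 18 of the 28 (64.3%), against 5.90% and 5.89%. Of the genes with an entry, CENPE and KIF2C held neither motif in these exact letters. Other spellings of the CHR element were not searched, so a gene without TTTGAA may still have one. The sequences run from 120 bases before to 30 bases after the start site in 6 genes on which the results turn, with CHR and CCAAT letters of either strand in capitals.
PLK1: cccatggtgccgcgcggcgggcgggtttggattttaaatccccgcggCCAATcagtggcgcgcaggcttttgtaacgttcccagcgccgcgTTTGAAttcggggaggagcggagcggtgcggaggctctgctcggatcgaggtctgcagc
CDC20: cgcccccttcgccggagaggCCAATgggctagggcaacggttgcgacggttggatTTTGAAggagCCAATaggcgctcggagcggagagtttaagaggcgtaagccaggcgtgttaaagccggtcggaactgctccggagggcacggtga
CCNB2: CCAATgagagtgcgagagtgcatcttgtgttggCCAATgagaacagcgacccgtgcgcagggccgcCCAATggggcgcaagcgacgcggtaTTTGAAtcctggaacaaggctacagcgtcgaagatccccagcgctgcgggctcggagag
CCNB1: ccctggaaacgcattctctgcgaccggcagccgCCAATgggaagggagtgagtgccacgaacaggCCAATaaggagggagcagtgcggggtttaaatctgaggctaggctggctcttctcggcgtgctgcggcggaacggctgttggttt
CKS2: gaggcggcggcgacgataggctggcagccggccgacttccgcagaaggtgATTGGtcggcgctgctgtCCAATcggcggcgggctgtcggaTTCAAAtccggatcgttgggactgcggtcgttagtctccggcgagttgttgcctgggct
TOP2A: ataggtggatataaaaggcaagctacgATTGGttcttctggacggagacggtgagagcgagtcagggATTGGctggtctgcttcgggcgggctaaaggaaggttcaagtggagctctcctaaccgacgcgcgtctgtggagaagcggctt
These windows are PLK1 at chr16:23678769-23678918 (plus strand), CDC20 at chr1:43358861-43359010 (plus strand), CCNB2 at chr15:59105026-59105175 (plus strand), CCNB1 at chr5:69167030-69167179 (plus strand), CKS2 at chr9:89311075-89311224 (plus strand) and TOP2A at chr17:40417867-40418016 (minus strand). In PLK1, CCNB2 and CKS2 the CHR letters began 29 bases before the start site, in CKS2 on the reverse strand, and in CDC20 they began 65 bases before it, with a further match on the reverse strand 178 bases before it, outside the printed window. CCNB1 had 2 CCAAT boxes and no CHR letters in its whole promoter entry, and the CHR letters of TOP2A lay outside the printed window, 194 and 151 bases before the start site.

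The 3′ UTRs were read for elements known to bind decay factors, which the choice of genes did not use. In the counted transcripts of GENCODE 29, the Pumilio element TGTANATA occurred in 15 of the 34 mitosis genes (44.1%), read along the transcript strand alone, and in 28.9% of the 9312 genes tested for decay with an annotated 3′ UTR. The AU-rich element TATTTAT occurred in 6 (17.6%), against 33.8%. These 3′ UTRs were shorter, with a median of 616 bases against 1237, and the part of length in these shares was not tested. Sites of 6 genes that differ in how long they kept their label are shown with the element in capitals, written as DNA.
CCNB1: tgtgccatcTGTACATAttactgttg
CCNB2: tcttgatttTGTACATAgtcctctgg
CKS2: atgtatatgTGTATATAaggtagtat
TTK: ttatggcacTGTATATAttgtagact
CENPF: tatgaaaccTGTACATAtgtgtgtgt
CENPE: gaattgtttTATTTATttgtatatt
The elements begin at base 59 of 614 of the 3′ UTR in CCNB1, base 70 of 168 in CCNB2, base 47 of 278 in CKS2, base 178 of 325 in TTK, base 571 of 794 in CENPF and base 236 of 416 in CENPE. Among the 4 mitosis genes with the longest half-lives, CKS2 held a Pumilio element and PTTG1, CKS1B and BIRC5 did not. Among the 4 with the shortest, KIF11 and ECT2 held one and CENPE and AURKA did not.

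At the end of the pulse the mitosis genes were heavily labelled. Of their pooled reads, 59.8% were labelled at 0 h, then 59.2% after 20 min, 60.03% after 40 min, 58.2% after 1 h, 51.6% after 2 h, 9.99% after 8 h and 2.89% after 12 h, against 0.00598% without 4sU, where 1 labelled read, in UBE2C, was found among 16709. The label was therefore level through the first 40 min and nearly gone by 12 h. At 0 h the median mitosis gene had 67.1% of its reads labelled, against 44.6% for the median of all genes tested, and 33 of the 34 lay above that median. The range ran from 36.9% in BIRC5 to 78.7% in CENPE. Reads with more T offer more places for a conversion, and the last 250 bases of the counted transcript were 36.0% T in the median mitosis gene and 32.0% T in the median gene tested. Across the 34 genes the T content went with the labelled share at 0 h (Pearson r = 0.69, Spearman rho = 0.63, n = 34 genes of 1 library). The differences between genes in share at 0 h are therefore descriptions only. Half-lives and shares kept are relative to each gene's own start. The part of T content in the high shares was not tested.

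The labelled share fell in all 34 mitosis genes, called at a Benjamini-Hochberg adjusted p under 0.05 in an edgeR fit of labelled counts against hours with the gene's own total as offset. Over all genes 95.3% were called the same way (8925 of 9362), a share close to that of the mitosis genes. Half-lives of the labelled share, from a binomial fit of an exponential above the background without 4sU, had a median of 2.87 h in the mitosis genes and 2.82 h over all genes tested, with 15 of the 34 below that overall median. Within the mitosis genes half-lives ran from 1.90 h in CENPE to 6.37 h in PTTG1. The 95% interval lay wholly below the all-gene median for CENPE, AURKA, KIF11 and TOP2A, and wholly above it for PTTG1, CKS2, CKS1B, BIRC5, CCNB2 and NUSAP1. Of these 10 genes TOP2A changed sides when labelled reads were scaled to the library in place of the gene's total, with 3.68 h against an all-gene median of 3.02 h. The share of all genes with an interval clear of the median was not counted. The quartiles over all genes tested were 2.19 and 4.45 h. Departure from the exponential was wide, with a median Pearson dispersion of 23.2 in the mitosis genes against 3.74 over all genes (1 is binomial error alone). A misfit of a given size raises this value more in genes with more reads, so these medians also reflect read depth. The intervals were widened for the departure, but they do not cover the change of half-life along the chase given below. These half-lives count dilution by new unlabelled RNA as loss of label, so a rise of the gene's total shortens them.

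**Figure D1:**
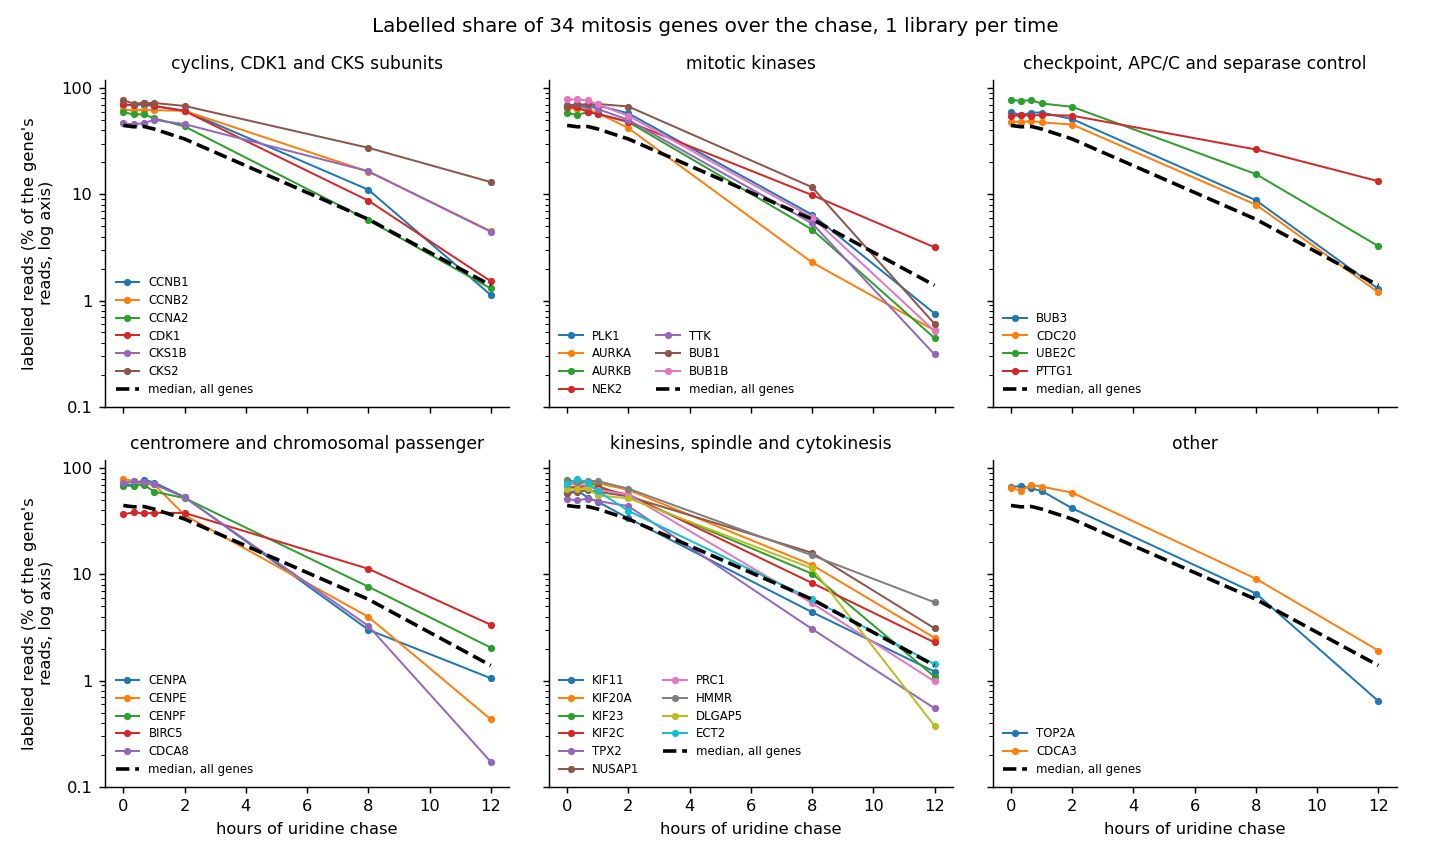
Labelled reads as a percent of the gene's reads (log axis) against hours of uridine chase, with 1 line per mitosis gene, 1 library per point and genes grouped by role. The dashed line is the median of all genes tested, and the library without 4sU, where 33 genes had no labelled read, is not drawn. Most lines stay level to 1 h and part after 2 h, with PTTG1 and CKS2 at 13.3% and 13.1% at 12 h and CDCA8 at 0.172% (1 labelled read of 582).

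The cyclins, CDK1 and the CKS subunits had a median half-life of 3.58 h over 6 genes, the longest of the roles for the labelled share. With labelled reads scaled to the library that order turned, with 3.08 h here and 3.54 h for checkpoint, APC/C and separase control, and no role was tested against another. Half-lives are given with their 95% interval in parentheses. CKS2, a small adaptor that binds CDK1, had 77.0% at 0 h, then 71.6% after 20 min, 72.3% after 40 min, 72.5% after 1 h, 68.0% after 2 h, 27.4% after 8 h and 13.1% after 12 h. Label was still present at the end of the chase, and the half-life was 5.59 h (4.36 to 7.15 h). CKS1B, its close relative, fell to 4.44% at 12 h, against 46.6% at 0 h, with a half-life of 4.39 h (3.26 to 5.92 h). The B-type cyclins activate CDK1 at mitotic entry. CCNB1 had 68.8% at 0 h, then 69.4% after 20 min, 70.01% after 40 min, 67.8% after 1 h, 61.5% after 2 h, 11.1% after 8 h and 1.13% after 12 h. CCNB2 had 62.2% at 0 h, then 62.0% after 20 min, 62.2% after 40 min, 62.1% after 1 h, 61.1% after 2 h, 16.4% after 8 h and 4.50% after 12 h. The CCNB2 share at 12 h was 7.24% of its own start and the CCNB1 share 1.62%, yet the half-lives of 3.89 h (2.90 to 5.21 h) and 3.28 h (2.28 to 4.72 h) overlap in their intervals. CDK1, the kinase itself, had 2.86 h (2.07 to 3.97 h), and CCNA2, the A-type cyclin of S and G2 phase, was the fastest of the group with 2.47 h (2.03 to 2.99 h). Scaled to the library, CCNB1 was the fastest of the group, with 2.66 h against 2.77 h in CCNA2.

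The mitotic kinases had a median of 2.34 h over 7 genes, against an all-gene median of 2.82 h and lower quartile of 2.19 h. Of the 7, 5 lay below 2.5 h, a count not made over all genes. With labelled reads scaled to the library the median of the kinases was 2.75 h. Of those 5, AURKA then stayed below 2.5 h, at 2.13 h. BUB1B had 2.61 h, AURKB 2.64 h, TTK 2.75 h and PLK1 3.14 h on that scale. AURKA, the Aurora kinase of centrosomes and spindle poles, had 65.4% at 0 h, then 63.1% after 20 min, 63.6% after 40 min, 58.3% after 1 h, 42.0% after 2 h, 2.28% after 8 h and 0.523% after 12 h. Its share was already lower at 2 h than in any earlier library, and its half-life was 1.92 h (1.48 to 2.49 h). TTK, which starts the spindle checkpoint at kinetochores, had 2.23 h (1.75 to 2.85 h), BUB1B, the checkpoint protein BubR1 that inhibits the APC/C, had 2.28 h (1.79 to 2.91 h), and AURKB, the catalytic subunit of the chromosomal passenger complex, had 2.34 h (1.70 to 3.20 h). PLK1, the Polo-like kinase of mitotic entry and spindle assembly, had 67.3% at 0 h, then 67.5% after 20 min, 66.2% after 40 min, 68.7% after 1 h, 57.9% after 2 h, 6.44% after 8 h and 0.754% after 12 h. This gene lost little label to 1 h and nearly all of it by 12 h, and its fitted value was 2.46 h (1.81 to 3.33 h). NEK2, a kinase that separates the centrosomes, had 2.95 h (2.61 to 3.34 h) and kept 3.17% labelled at 12 h, the highest share of the kinases. BUB1, the checkpoint kinase, had 3.07 h (2.12 to 4.45 h), on 152 reads at 0 h and 166 at 12 h, of which 1 was labelled at 12 h.

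Among genes of checkpoint, APC/C and separase control the median was 3.21 h over 4 genes. PTTG1, which encodes securin, the inhibitor of separase, had 54.8% at 0 h, then 55.4% after 20 min, 55.1% after 40 min, 56.0% after 1 h, 55.1% after 2 h, 26.5% after 8 h and 13.3% after 12 h. Its share lay between 54.8% and 56.0% through 2 h and was still 13.3% at 12 h (95% exact interval 12.2 to 14.4%), and its half-life of 6.37 h (5.11 to 7.94 h) was the longest of the mitosis genes. The interval of PTTG1 lay wholly above those of 28 other mitosis genes and overlapped those of CKS2, CKS1B, BIRC5, CCNB2 and NUSAP1. CDC20, the APC/C activator and the most read of the 34, had 48.3% at 0 h, then 47.9% after 20 min, 48.9% after 40 min, 47.5% after 1 h, 45.4% after 2 h, 7.99% after 8 h and 1.19% after 12 h, with a half-life of 2.93 h (2.20 to 3.90 h). UBE2C, the ubiquitin-conjugating enzyme of the APC/C, had 3.46 h (2.65 to 4.52 h), and BUB3, the scaffold of the checkpoint complex, had 2.96 h (2.166 to 4.05 h).

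The centromere and chromosomal passenger genes had the lowest median, 2.31 h over 5 genes. CENPE, the kinesin of the kinetochore, had 78.7% at 0 h, then 75.9% after 20 min, 70.3% after 40 min, 70.4% after 1 h, 36.2% after 2 h, 3.98% after 8 h and 0.431% after 12 h. The 2 h library held less than the 4 earlier ones, with 47 of 130 reads labelled (95% exact interval 27.9 to 45.04%) against 100 of 127 at 0 h (70.6 to 85.5%). The CENPE half-life of 1.90 h (1.52 to 2.37 h) was the shortest of the mitosis genes, and 9 of them had intervals wholly above its own. It was not the shortest with labelled reads scaled to the library, where CENPE had 2.38 h and CDCA8 2.03 h, nor over 1 to 12 h alone, where AURKA had 1.56 h. CDCA8 (borealin), a subunit of the passenger complex, had 2.27 h (1.57 to 3.27 h) and 0.172% labelled at 12 h. That share was 1 labelled read of 582 (95% exact interval 0.00435 to 0.954%). TTK, DLGAP5, CENPE and BUB1 also had 1 labelled read at 12 h, so these genes cannot be ranked by that share. CENPA, the histone H3 variant that marks centromeres, had 2.31 h (1.53 to 3.50 h), and CENPF, of the outer kinetochore, 2.65 h (2.12 to 3.33 h). BIRC5 (survivin), another passenger subunit, had 36.9% at 0 h, then 38.4% after 20 min, 37.5% after 40 min, 38.0% after 1 h, 37.9% after 2 h, 11.3% after 8 h and 3.35% after 12 h. No decline was seen in BIRC5 before 8 h, and its half-life was 4.32 h (3.08 to 6.06 h).

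The 10 genes of motors, spindle and cytokinesis had a median of 2.86 h. KIF11, the bipolar kinesin Eg5 that pushes spindle poles apart, had 57.9% at 0 h, then 62.0% after 20 min, 53.0% after 40 min, 48.3% after 1 h, 33.8% after 2 h, 4.41% after 8 h and 1.21% after 12 h and a half-life of 2.15 h (1.86 to 2.49 h). ECT2, the exchange factor that activates RhoA at the cleavage site, had 2.21 h (1.71 to 2.85 h), TPX2, the activator of AURKA on spindles, 2.26 h (1.60 to 3.19 h), and PRC1, which cross-links microtubules of the central spindle, 2.45 h (1.83 to 3.27 h). The cytokinesis kinesins KIF23 and KIF20A had 2.84 h (2.30 to 3.50 h) and 3.23 h (2.36 to 4.42 h), the depolymerising kinesin KIF2C had 2.87 h (2.14 to 3.85 h), and DLGAP5 (HURP), which steadies kinetochore fibres, had 2.89 h (2.25 to 3.71 h). Slowest were HMMR, a spindle assembly factor, with 3.65 h (2.76 to 4.83 h), and NUSAP1, a microtubule-bundling protein, with 3.86 h (2.87 to 5.20 h). Of the remaining pair, TOP2A, the topoisomerase that untangles sister DNA, had 66.2% at 0 h, then 68.2% after 20 min, 64.5% after 40 min, 61.3% after 1 h, 41.9% after 2 h, 6.61% after 8 h and 0.641% after 12 h and a half-life of 2.25 h (1.91 to 2.65 h), and CDCA3, which promotes turnover of the mitotic inhibitor WEE1, had 3.03 h (2.08 to 4.42 h).

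**Figure D2:**
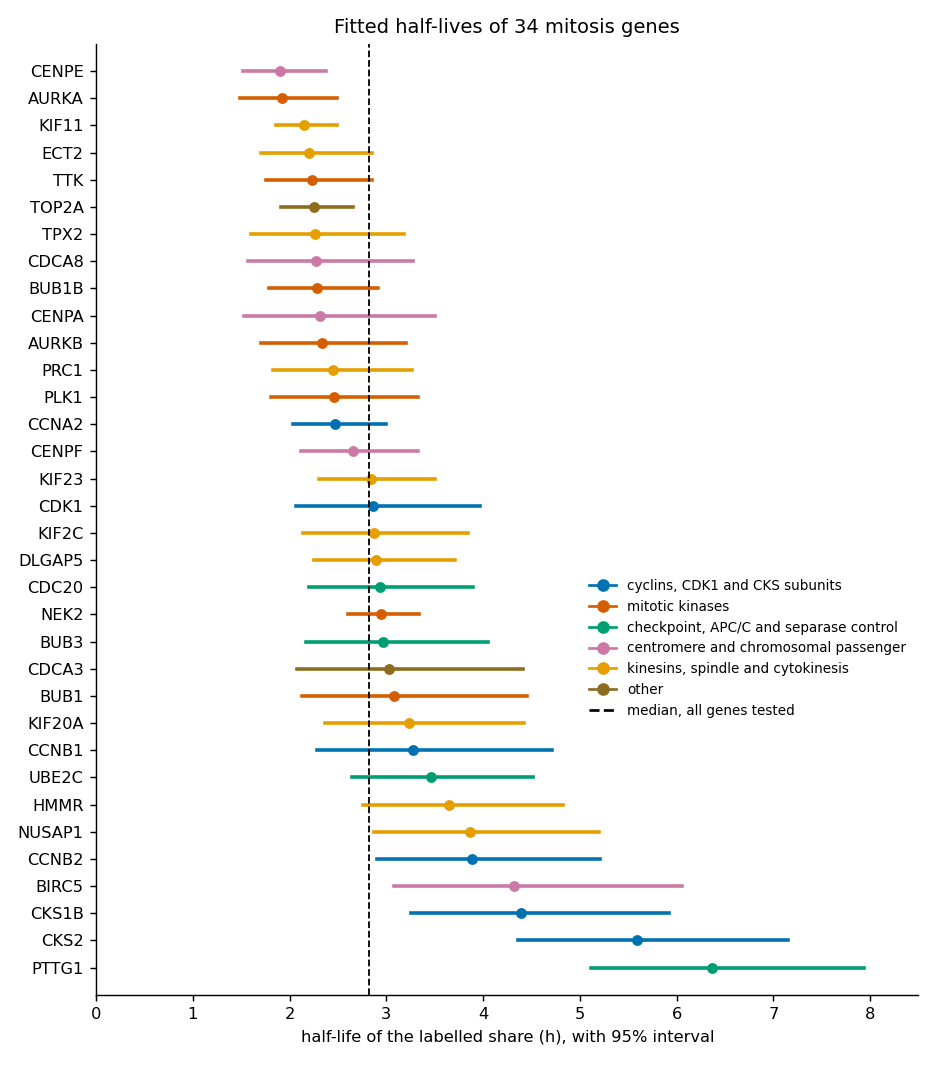
Half-life of the labelled share in hours (point) with its 95% interval (bar) for the 34 mitosis genes, ordered by half-life and coloured by role, with the dashed line at the all-gene median of 2.82 h. Neighbours in the order overlap throughout, while the intervals of CENPE and AURKA at the top do not reach those of CKS1B, CKS2 and PTTG1 at the bottom.

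Most of the label was lost after 2 h. Relative to its share over the 0 to 40 min libraries, the median mitosis gene kept 96.5% of its label after 1 h (81.9 to 108%), 84.9% after 2 h (48.4 to 101%), 12.9% after 8 h (3.57 to 47.98%) and 2.13% after 12 h (0.232 to 24.1%). Medians over all genes tested were 96.7%, 83.3%, 14.1% and 3.13% at the same times. Over the 0 to 2 h libraries alone, 19 of the 34 mitosis genes were called as falling, against 32.1% of all genes (3004 of 9362). A fall of the same size is called more readily in genes with more labelled reads. The median share kept at 2 h was no lower in the mitosis genes than over all genes. The lowest shares kept at 2 h were 48.4% in CENPE, 53.4% in ECT2, 58.8% in KIF11, 63.2% in TOP2A and 65.7% in AURKA. Over 90% was kept at 2 h in 9 genes (CCNB2, CKS1B, CKS2, BUB1, CDC20, PTTG1, BIRC5, NUSAP1 and CDCA3). The share of all genes above 90% was not counted. The half-life of the median mitosis gene was 8.89 h over 0 to 2 h alone (7.40 h over all genes) and 2.39 h over 1 to 12 h alone (2.45 h). Between the 2 h and 8 h shares it was 2.24 h (2.33 h over all genes) and between the 8 h and 12 h shares 1.72 h (1.96 h). The half-life of a gene thus depended on the stretch of the chase that was fitted.

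Total levels of the mitosis genes moved little to 2 h and were then, for most, higher at 8 h. The 8 h CPM lay above all 5 libraries of 0 to 2 h in 30 of the 34, against 49.8% of all genes, and below all 5 in 4 (CCNB1, CKS2, KIF23 and BIRC5), against 25.0%. The 8 h library was the highest of the 7 chase libraries in 28, against 28.1% of all genes, the exceptions being those 4 genes with PTTG1 and CKS1B, which were highest at 12 h. From 8 h to 12 h the level was lower in 32 of the 34, against 55.9% of all genes. The 12 h library lay above all 5 early libraries in 15, against 46.9% of all genes, below all 5 in 12, against 29.8%, and within them in 7. The median ratio of 8 h to the pooled 0 to 2 h libraries was 1.41 in the mitosis genes and 1.12 over all genes. With TMM factors, which bring the all-gene median to 0.992, it was 1.25, and the 8 h value exceeded the 5 early libraries in 28 genes, with NEK2 (1.03) and HMMR (0.990) then within them. The 8 h library was then the highest of the chase in 26. The shares of all genes above are from CPM and were not counted with TMM factors, so the counts of 28 and 26 have no background.

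In edgeR with TMM factors, total level against hours rose in 10 of the 34 mitosis genes, against 27.5% of all genes (2911 of 10597), and fell in 5, against 23.9% (2533). The other 19 passed in neither direction. A line in time describes a peak at 8 h poorly: with hours and hours squared in the fit, chosen after that peak was seen, 30 of the 34 changed, against 55.2% of all genes, and BUB1, KIF20A, DLGAP5 and CDCA3 did not pass (adjusted p = 0.0750, 0.0897, 0.175 and 0.280). The counts of the straight line hung on the last 2 libraries. Without the 12 h library 22 genes rose and 4 fell, and without the 8 h library 9 rose and 12 fell. Counts over all genes are not given for these fits, and the 27.5% and 23.9% above belong to all 7 libraries.

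TOP2A had the largest log2 change of the 34 genes in either direction. It had 76.8 CPM at 0 h, then 78.5 after 20 min, 77.6 after 40 min, 73.1 after 1 h, 87.5 after 2 h, 257 after 8 h and 226 after 12 h, against 647 without 4sU. The 8 h and 12 h values stood far above the 5 earlier ones, which did not exceed 87.5 CPM, and far below the cells without 4sU. Its log2 change over 12 h was 1.83 ± 0.19 (SE, adjusted p = 2.46e-05). Labelled TOP2A reads were 17.0 CPM at 8 h, against 50.9 CPM at 0 h, while unlabelled reads were 240.2 CPM at 8 h, against 25.9 CPM at 0 h. With labelled reads scaled to the library in place of the gene's total, the half-life of TOP2A was 3.68 h, longer than the all-gene median of 3.02 h on that scale.

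Of the 7 mitotic kinases 5 rose, where 27.5% of all genes did, and no role was tested against the rest. PLK1 had 179.7 CPM at 0 h, then 198 after 20 min, 192 after 40 min, 190.0 after 1 h, 197 after 2 h, 452 after 8 h and 321 after 12 h, against 64.3 without 4sU. The 8 h and 12 h libraries exceeded all earlier ones, with a log2 change of 1.02 ± 0.20 (SE, adjusted p = 0.00119). BUB1B had 40.4 CPM at 0 h, then 42.4 after 20 min, 42.0 after 40 min, 46.4 after 1 h, 40.5 after 2 h, 83.7 after 8 h and 70.3 after 12 h, against 44.4 without 4sU, a log2 change of 0.86 ± 0.16 (SE, adjusted p = 0.000917). In both genes 8 h was the peak and 12 h stayed above every early library. AURKB changed by 0.68 ± 0.12 (SE, adjusted p = 0.000630), AURKA by 0.65 ± 0.17 (SE, adjusted p = 0.00799) and TTK by 0.77 ± 0.24 (SE, adjusted p = 0.0182), and the call of TTK was lost without the 8 h library (log2 change 0.40). These sizes rested on the last 2 libraries: without the 12 h library the log2 change was 1.75 in PLK1, 1.33 in BUB1B, 1.07 in AURKB, 1.27 in AURKA and 1.58 in TTK, and without the 8 h library it was 0.67 in PLK1 and 0.37 in AURKA. NEK2 and BUB1 did not pass, with log2 changes of -0.41 ± 0.21 and 0.43 ± 0.21 (SE), and the sign for NEK2 turned without the 12 h library (0.24).

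Of the APC/C and separase group, CDC20 and PTTG1 rose. CDC20 had 717 CPM at 0 h, then 692 after 20 min, 668 after 40 min, 627 after 1 h, 688 after 2 h, 1166 after 8 h and 973 after 12 h, against 635 without 4sU. It peaked at 8 h, clear of the early range, and changed by 0.59 ± 0.13 (SE, adjusted p = 0.00229), or by 0.97 without the 12 h library. PTTG1 had 304 CPM at 0 h, then 319 after 20 min, 315 after 40 min, 322 after 1 h, 321 after 2 h, 435 after 8 h and 467 after 12 h, against 186 without 4sU. Unlike CDC20 it did not come down at 12 h, and its log2 change was 0.49 ± 0.06 (SE, adjusted p = 0.000103). UBE2C (log2 change -0.00468 ± 0.15) and BUB3 (-0.06 ± 0.09, SE) passed in neither direction. Among centromere genes CENPE rose, by 1.09 ± 0.30 (SE, adjusted p = 0.00897). Its level was low throughout, with 42.7 CPM at 8 h and 28.1 CPM at 12 h, against 14.5 to 21.9 CPM over 0 to 2 h, and the log2 change was 1.94 without the 12 h library and 0.67 without the 8 h library. CKS1B also rose, by 0.28 ± 0.07 (SE, adjusted p = 0.00790), a call lost without the 12 h library (0.19).

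Genes that fell came from several roles. CKS2 had 203 CPM at 0 h, then 182 after 20 min, 179 after 40 min, 172 after 1 h, 183 after 2 h, 110.2 after 8 h and 71.4 after 12 h, against 71.6 without 4sU. Both late libraries lay below all early ones, and 12 h was at the level of cells without 4sU. Its log2 change was -1.54 ± 0.10 (SE, adjusted p = 1.62e-06), and scaled to the library its label had a half-life of 3.35 h in place of 5.59 h. CCNB1 had 191 CPM at 0 h, then 192 after 20 min, 184 after 40 min, 195 after 1 h, 198 after 2 h, 172 after 8 h and 107 after 12 h, against 109 without 4sU, a log2 change of -0.85 ± 0.12 (SE, adjusted p = 0.000165) that was -0.48 without the 12 h library. CCNB2, by contrast, had 157 CPM at 8 h, against 109.7 to 118 CPM over 0 to 2 h, and did not pass on the line (log2 change 0.23 ± 0.11, SE). KIF23 changed by -1.02 ± 0.18 (SE, adjusted p = 0.000584), or by -0.53 without the 12 h library, and BIRC5 by -0.87 ± 0.08 (SE, adjusted p = 8.74e-06). HMMR changed by -0.47 ± 0.16 (SE, adjusted p = 0.0253), and that call was lost without the 12 h library (-0.03), without the 20 min library (-0.44) and against log2(hours + 1) (-0.43). The other genes of motors, spindle and cytokinesis (KIF11, KIF20A, KIF2C, TPX2, NUSAP1, PRC1, DLGAP5 and ECT2) passed in neither direction, as did CCNA2, CDK1, CENPA, CENPF, CDCA8 and CDCA3, though all 14 were higher at 8 h than in every library of 0 to 2 h.

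**Figure D3:**
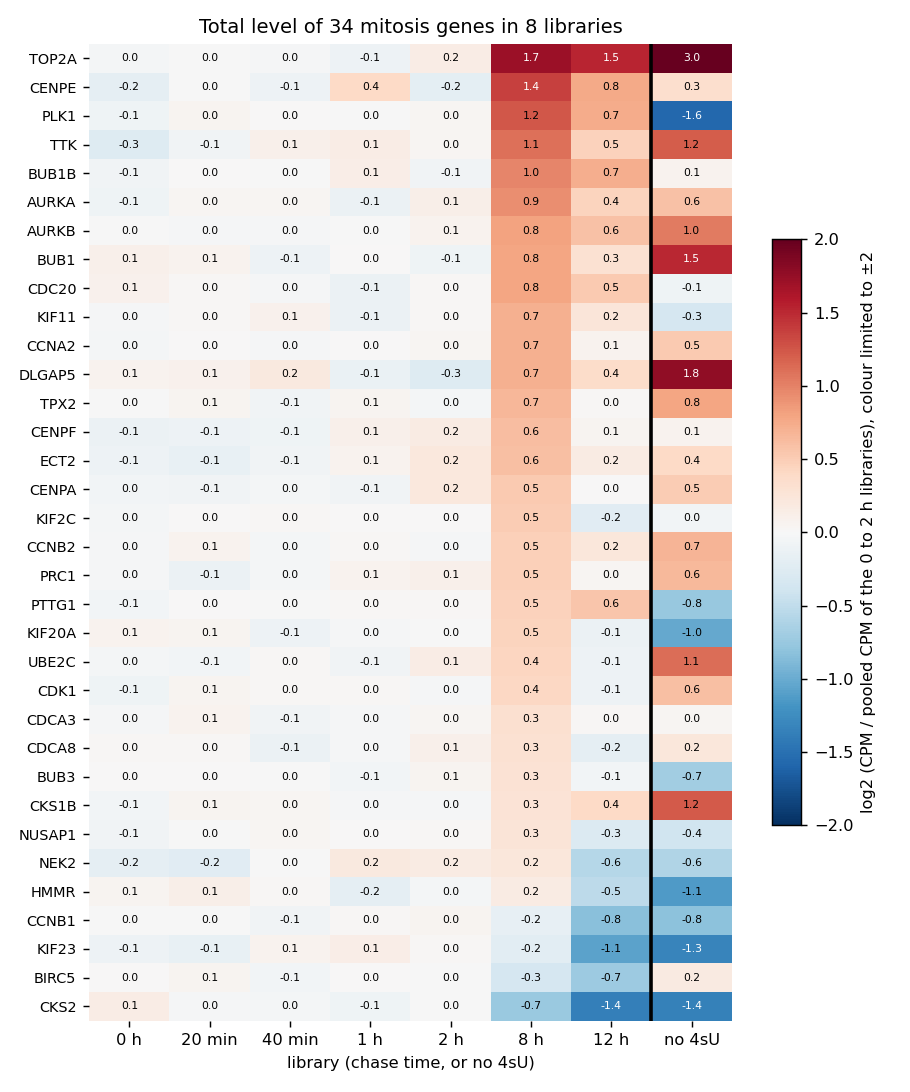
Total level of the 34 mitosis genes in 8 libraries, as log2 of CPM over the pooled CPM of the 0 to 2 h libraries, ordered by the 8 h value, with colour limited to ±2 and the library without 4sU at the right. Red fills the 8 h column down to HMMR (which lies at 0.990 of its early level with TMM factors) and blue the last 4 genes (CCNB1, KIF23, BIRC5 and CKS2), while the column without 4sU runs from TOP2A, at 3.04, to PLK1, at -1.57.

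Summed over the 34 genes, labelled reads were 2782 CPM at 0 h, then 2479 after 2 h, 671 after 8 h and 151 after 12 h, and unlabelled reads 1867 CPM at 0 h, then 2326 after 2 h, 6046 after 8 h and 5072 after 12 h. The higher totals at 8 h were thus unlabelled reads. For PLK1 unlabelled reads were 423 CPM at 8 h, against 58.7 CPM at 0 h, and for CDC20 1073 CPM at 8 h, against 370.4 CPM at 0 h. For CKS2 they were 80.0 CPM at 8 h, against 46.6 CPM at 0 h. Because a gene's share falls faster when unlabelled reads are added, half-lives were also fitted to labelled reads scaled to the library. The median of the mitosis genes was then 2.94 h (3.02 h over all genes), and the order of the 34 was partly kept (Spearman rho = 0.78 between the scales). The half-life of the share went with the ratio of 8 h to early level at rho = -0.69 across the 34 genes, and the half-life on the library scale at rho = -0.24. These correlations share the 8 h library and are descriptions only.

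**Figure D4:**
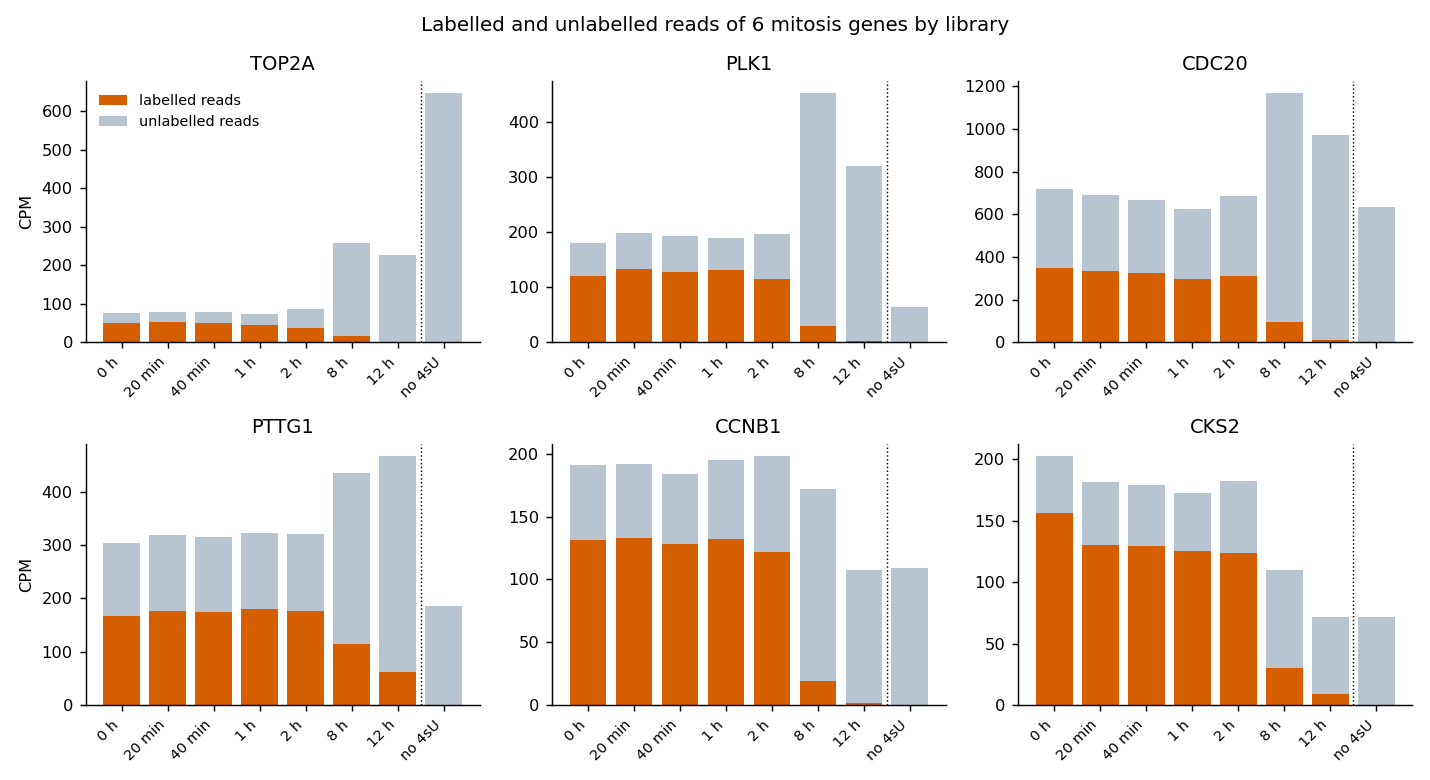
Labelled (orange) and unlabelled (grey) reads, stacked, in CPM for 6 mitosis genes in the 7 chase libraries and the library without 4sU, each panel with its own axis from 0. Unlabelled reads fill nearly all of the 8 h and 12 h bars of TOP2A, PLK1 and CDC20, labelled reads remain visible at 12 h in PTTG1 (62.1 CPM) and CKS2 (9.31 CPM), and the bars without 4sU hold no labelled reads.

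Cells at the end of the pulse were set against cells without 4sU. Over 1.5-fold lower at 0 h were 12 of the 34 mitosis genes, against 28.4% of all genes, and over 1.5-fold higher were 8, against 31.6%. The 95% counting interval of the ratio, given in parentheses, lay below 1 in 18, above 1 in 11 and across 1 in 5. These intervals were not counted over all genes, and in genes with many reads a small difference puts 1 outside them. The median ratio was 0.879 in the mitosis genes and 1.01 over all genes. TOP2A was lowest, at 76.8 CPM at 0 h, against 647 CPM without 4sU, a ratio of 0.119 (0.109 to 0.130). Next came DLGAP5 at 0.304 (0.253 to 0.366), TTK at 0.360 (0.294 to 0.440), BUB1 at 0.377 (0.297 to 0.479), CKS1B at 0.411 (0.385 to 0.439), UBE2C at 0.449 (0.407 to 0.496) and AURKB at 0.487 (0.443 to 0.535). Higher at 0 h were CKS2 at 2.83 (2.45 to 3.28), PLK1 at 2.79 (2.40 to 3.27), KIF23 at 2.34 (1.85 to 2.99), HMMR at 2.28 (1.85 to 2.82), KIF20A at 2.13 (1.75 to 2.61), CCNB1 at 1.75 (1.55 to 1.98), PTTG1 at 1.63 (1.49 to 1.79) and BUB3 at 1.62 (1.47 to 1.79). Close relatives lay on either side of 1: CCNB1 was higher and CCNB2 lower, at 0.610 (0.548 to 0.680), and CKS2 was higher and CKS1B lower.

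After 12 h of chase, 10 of the 34 were over 1.5-fold lower than without 4sU, against 20.2% of all genes, and 7 were over 1.5-fold higher, against 34.4%. TOP2A was at 0.350 (0.328 to 0.373), nearer the cells without 4sU than at 0 h. CKS2 was at 0.997 (0.850 to 1.17), CCNB1 at 0.985 (0.865 to 1.12) and KIF23 at 1.20 (0.932 to 1.55), so that the intervals of these genes, above 1 at 0 h, spanned 1 at 12 h. PLK1 was further above cells without 4sU than at 0 h, at 4.98 (4.30 to 5.81), and so was PTTG1, at 2.51 (2.29 to 2.75). BIRC5 was lower at 12 h, at 0.532 (0.492 to 0.576), than at 0 h, at 0.891 (0.830 to 0.958). The library without 4sU had 2906703 gene reads, against 8267490 or more in the others, and was the only one of its kind, so that its depth and its treatment cannot be told apart here.

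**Figure D5:**
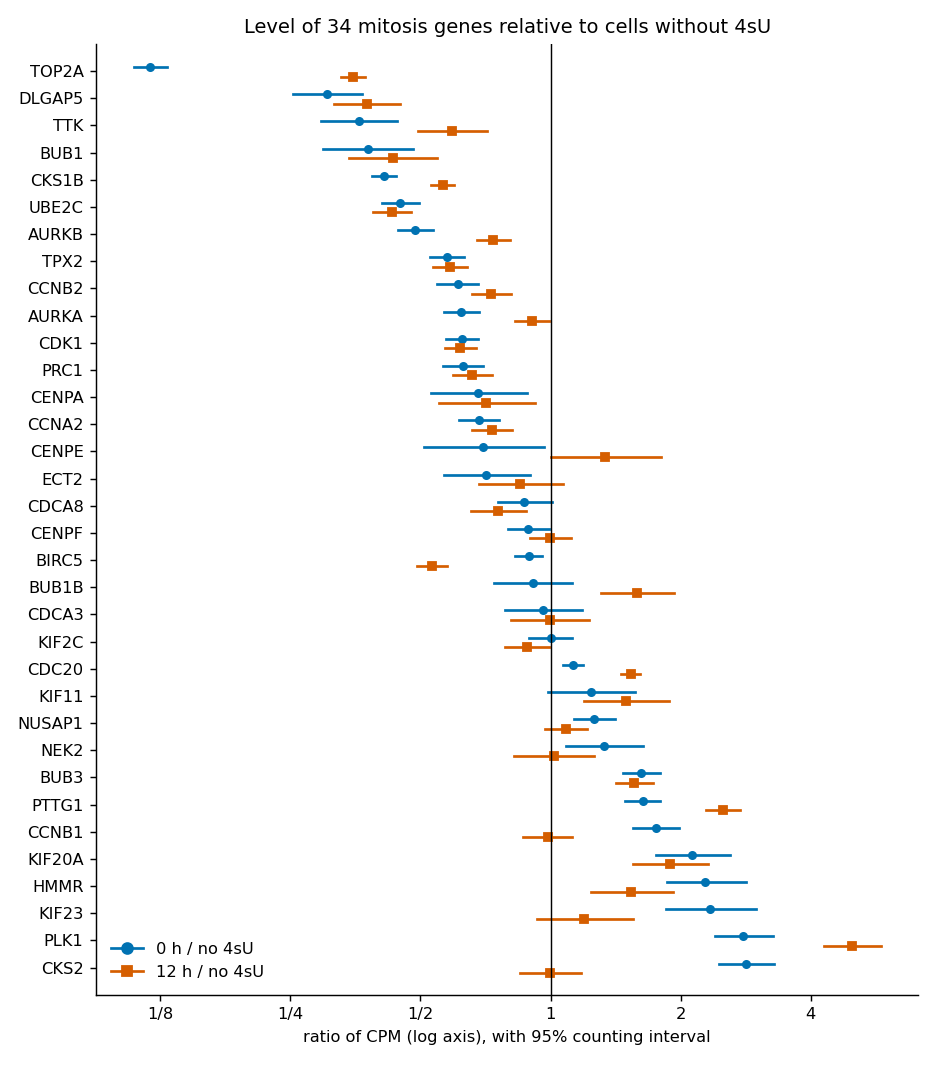
Ratio of CPM at 0 h (circles) and at 12 h (squares) to CPM without 4sU for the 34 mitosis genes (log axis), with 95% counting intervals, ordered by the 0 h ratio. TOP2A lies lowest at 0.119 and CKS2 highest at 2.83 at 0 h, and PLK1 reaches 4.98 at 12 h.

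Partners that act beside these genes were listed by function, none of them among the 34. Their counts are to be read against the 95.3% of all genes whose label fell. The label fell in 15 of 16 tested APC/C subunits and partners (median half-life 2.92 h, from the inhibitor FBXO5 at 1.99 ± 0.34 h, SE, to the catalytic RING subunit ANAPC11 at 9.99 ± 1.34 h). It fell in 38 of 38 kinetochore and checkpoint genes (2.93 h, CENPO at 1.66 ± 0.21 h to CENPW at 10.4 ± 2.06 h) and in 20 of 20 of cohesin and condensin (2.70 h, the cohesin release factor WAPL at 1.65 ± 0.12 h to the condensin subunit NCAPH2 at 8.01 ± 1.69 h). All 30 further spindle, motor and cytokinesis genes fell (2.47 h, HAUS6 at 1.58 ± 0.11 h to HAUS1 at 5.27 ± 0.76 h, both of the augmin complex). So did 17 of 17 genes of a mitotic entry list (2.75 h, the phosphatase CDC25A at 1.82 ± 0.22 h to the PP2A inhibitor ENSA at 13.7 ± 2.72 h). That list holds entry kinases and phosphatases but also genes of neither kind, among them ENSA, CCNF and MKI67. Of the regulators that transcribe or repress mitotic genes 18 of 18 fell (2.66 h, E2F3 at 1.71 ± 0.15 h to RBBP4, a MuvB subunit, at 5.31 ± 0.43 h). DNA replication genes, which act earlier in the cycle, fell in 45 of 46 (3.40 h, the licensing factor CDC6 at 1.73 ± 0.32 h to RPA3 at 17.97 ± 3.49 h). None of these medians was tested against the mitosis genes.

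The level at 8 h differed from list to list, with no test between lists. The median ratio of 8 h to 0 to 2 h was 1.22 for APC/C partners, 1.21 for kinetochore genes, 1.54 for cohesin and condensin, 1.35 for the further spindle genes, 0.954 for the mitotic entry list, 1.09 for transcription regulators and 1.06 for DNA replication, against 1.41 for the mitosis genes and 1.12 for all genes. Over all genes the total level rose in 27.5% and fell in 23.9%. Total level rose in 6 and fell in 5 of 16 APC/C partners, rose in 10 and fell in 11 of 38 kinetochore genes, and rose in 11 and fell in 4 of 20 cohesin and condensin genes. It rose in 11 and fell in 10 of 30 further spindle genes, rose in 2 and fell in 11 of 18 genes of the mitotic entry list, and rose in 5 and fell in 4 of 18 transcription regulators. Among DNA replication genes the level rose in 9 and fell in 21 of 47.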

How the data were processed

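THP-1 RNA was measured by SLAM-seq with 3′-end libraries (QuantSeq 3′ FWD) in 8 conditions of 1 library each. The authors deposited raw counts per 3′ UTR segment of a transcript, once for all reads and once for converted reads, called labelled here. Per the submitters' processing notes, the tools included Trim Galore 0.6.5 and bcl2fastq 2.17.1.14, with hg19 and dm3 as builds. Not given in the sources used here are the aligner, the counter and how many conversions make a read labelled, so labelled shares rest on an unknown threshold. The protocol writes the 20 min and 40 min times as fractions of an hour, and the minutes of the sample labels were used. The exact intervals of shares and ratios cover counting error only. No molecular identifiers are recorded, so copies of the same molecule may count as separate reads, and these intervals may be too narrow. Nothing says whether the times came from separate cultures.

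The count tables held 64545 segments of 56570 transcripts, of which GENCODE 29 named 48045 (84.93%), with 5.65% of reads in unnamed segments. Segments of a gene overlap, so each gene was counted by its most covered segment. Segments on haplotypes or unplaced contigs (3056) and genes with the same counts as another gene (136, no mitosis gene) were left out. Members and lists were chosen with earlier results of these data known. All 34 mitosis genes are named, and of the other lists the fastest and slowest resolved gene averaging 200 reads or more whose log rate had a standard error up to 0.25.

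Labelled counts were fitted against hours in edgeR 4.0.16 (quasi-likelihood, R 4.3.3) with the log of the gene's total as offset, keeping genes that averaged 50 reads or more and had 20 or more labelled ones. Totals were fitted with TMM factors, keeping genes that averaged 20 reads or more. The main fits used a line through the 7 chase libraries, with 5 residual degrees of freedom and Benjamini-Hochberg adjustment over all genes, and were tested on simulated counts. The fit with hours squared and the fits of fewer libraries left fewer degrees of freedom. The SE of a level change is approximate, computed from the slope and its F value. Half-lives came from a binomial maximum-likelihood fit written in numpy 2.4.6, with background shrunk by 100 prior reads. Ratios of CPM carry exact 95% intervals (scipy 1.17.1) conditional on the summed count. DESeq2 1.42.0 served as an alternative.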

Additional observations from a re-analysis of the deposited data

How the results depend on the processing

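No paired analysis was possible because each condition has 1 library and no replicate number is shared. The count of mitosis genes whose label fell was 34 under every setting tried except the 0 to 2 h libraries alone, where it was 19 (3004 of all genes, against 8925). The median half-life was 8.89 h over 0 to 2 h alone and 2.39 h over 1 to 12 h alone, against 2.87 h. Leaving out each library in turn gave 2.65 to 3.08 h. Genes whose total rose numbered 22 without the 12 h library, against 10, and genes that fell numbered 12 without the 8 h library, against 5. The cause was not tested, and counts of rises and falls over all genes are not given for these fits. Over the single left-out libraries the counts ran from 9 to 22 and from 4 to 12. Without the 12 h library the level change turned sign in 8 genes, none of which passed with all 7 libraries. It was then 0.42 in CDK1, 0.50 in UBE2C, 0.45 in KIF20A and 0.58 in KIF2C, which passed, and 0.24 in NEK2, 0.22 in BUB3, 0.27 in CDCA8 and 0.18 in NUSAP1, which did not (log2 over 12 h). Without the 8 h library 6 others turned sign. Genes over 1.5-fold lower at 0 h than without 4sU numbered 12 with TMM factors and 13 with segments summed. The fewest reads were those of BUB1, CENPE, CENPA, DLGAP5 and ECT2, at 1351 to 2275 over the 8 libraries. Only 3 libraries lie beyond 1 h, and the unlabelled RNA made during the chase cannot be told apart from RNA that escaped labelling.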

Other observations

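A few mitosis genes have further counted 3′ segments with counts unlike those of the segment used above. HMMR had 2 further transcript segments with few reads, of which 7 of 138 and 4 of 72 were labelled at 8 h, against 150 of 993 in the segment used. NEK2 had a second segment with 27 of 450 reads labelled at 8 h and 154 of 240 at 0 h, against 80 of 813 and 318 of 475 in the segment used. CDCA3 had a segment elsewhere in the gene with 80 of 148 reads labelled at 0 h, against 240 of 370 in the segment used. Segments of a gene can share reads, so these counts are not independent of each other.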
